A study of Mus musculus with 6 samples.

Results

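The set described here holds 9 transcription factors of blood stem, progenitor and early myeloid cells, Myb, Sox4, Meis1, Hoxa9, Runx1, Gfi1, Spi1, Erg and Fli1, together with Cd34, a surface sialomucin of stem and progenitor cells. The 10 genes were picked by symbol, and all 10 were found among the 17691 genes of both deposited tables. The samples were erythroblasts, the nucleated precursors of red cells, taken from C57BL/6J mouse fetal liver as cells negative for TER119, an antigen of later erythroid cells. All of them were kept in medium with erythropoietin (Epo), the hormone of red cell formation. The treated group had carbon dots (CDs, carbon nanoparticles made from the plant Codonopsis pilosula) at 1 ug/ml for 30 h and the untreated group had none, with 3 libraries in each, numbered 1 to 3 in the labels.

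As background, these genes belong to the network that keeps blood progenitors immature or opens the myeloid programme. Runx1, Meis1, Hoxa9, Erg and Fli1 act in stem cells, Myb sustains the division of immature progenitors, Gfi1 and Spi1 (PU.1) direct granulocyte and macrophage fates, and Spi1 and the erythroid factor Gata1 oppose each other. Most of them are shut down as erythroblasts mature. Several are also made by other cells of fetal liver, Spi1 by macrophages and granulocytes, and Erg and Fli1 by endothelial cells and megakaryocytes.

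The treated and untreated groups each spanned a wide range. On the log2 scale of CPM (counts scaled to the library's size), 7 of the 9 genes tested differed more between untreated 3 and untreated 1 than between treated and untreated libraries of any 1 number. Those 7 were Spi1, Fli1, Cd34, Gfi1, Erg, Meis1 and Runx1. Sox4 and Myb did not follow that pattern. They were higher with CDs in each numbered pair and a little lower in untreated 3 than in untreated 1. The share of all genes that behaved like the 7 was not computed, so the count does not set these genes apart. Over all genes tested the replicate number took a median of 82.6% of the sum of squares of log2 CPM, and treatment 9.04%. For the 9 genes these medians were 73.1% and 20.9%. With edgeR's quasi-likelihood test on treatment alone, none of the 9 reached the threshold of 0.05 after adjustment, and 0% of all 12283 genes tested did (smallest adjusted p = 0.994). The unadjusted p was under 0.05 in 1 of the 9 (Sox4) and in 127 of all genes.

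Promoter sequences are shown first for 3 genes that stand for these patterns: Sox4, which was high in every CDs library, Cd34, which had the largest fold change of the set in the test on treatment alone, and Runx1, which has separate distal and proximal promoters whose transcripts the deposited gene counts add up. RefSeq promoter records on GRCm38.p6 (250 bases before to 50 after a gene's start) were matched by symbol for 8 of the 10 genes, in 12 records, with none for Spi1 and Fli1. Capitals mark the letters of ETS cores (CCGGAA or AGGAAG), sites of GATA factors (AGATAA or TGATAA) and RUNX sites (TGTGGT or TGCGGT) on either strand, and each sequence runs 5′ to 3′ along its gene.
Sox4, chr13:28953650-28953949, minus strand: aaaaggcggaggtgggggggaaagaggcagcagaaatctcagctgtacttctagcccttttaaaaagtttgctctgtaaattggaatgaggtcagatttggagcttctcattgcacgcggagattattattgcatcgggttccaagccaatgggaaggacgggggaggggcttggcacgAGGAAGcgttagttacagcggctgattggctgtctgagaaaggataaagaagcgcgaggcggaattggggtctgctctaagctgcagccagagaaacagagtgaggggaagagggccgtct
Cd34, chr1:194938571-194938870, plus strand: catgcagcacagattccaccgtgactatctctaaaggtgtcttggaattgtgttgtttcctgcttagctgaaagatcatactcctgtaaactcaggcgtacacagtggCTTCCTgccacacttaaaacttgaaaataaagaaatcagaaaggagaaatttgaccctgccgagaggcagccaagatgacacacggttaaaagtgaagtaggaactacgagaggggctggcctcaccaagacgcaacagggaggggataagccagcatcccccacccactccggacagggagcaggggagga
Runx1 distal, chr16:92826025-92826324, minus strand: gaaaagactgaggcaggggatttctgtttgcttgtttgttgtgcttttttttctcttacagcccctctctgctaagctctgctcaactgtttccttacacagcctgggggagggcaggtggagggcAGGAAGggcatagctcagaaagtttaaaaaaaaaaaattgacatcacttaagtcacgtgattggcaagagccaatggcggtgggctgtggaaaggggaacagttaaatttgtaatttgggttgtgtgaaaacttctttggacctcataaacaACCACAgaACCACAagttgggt
Runx1 proximal, chr16:92697280-92697579, minus strand: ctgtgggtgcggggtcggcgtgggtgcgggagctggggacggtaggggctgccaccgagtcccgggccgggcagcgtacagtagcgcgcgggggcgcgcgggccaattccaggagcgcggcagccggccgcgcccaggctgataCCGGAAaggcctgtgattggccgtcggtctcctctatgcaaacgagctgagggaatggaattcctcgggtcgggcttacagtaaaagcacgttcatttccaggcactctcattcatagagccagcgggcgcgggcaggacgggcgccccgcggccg

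An ETS core stood in 8 of the 12 records, against 45.2% of all 32851 promoters of the same length. A GATA site stood in 1 of 12, in an Erg record, against 18.6%, and a RUNX site in 2 of 12, in the Meis1 and distal Runx1 records, against 22.4%. MYB sites (AACGG or AACTG) stood in 4 of 12, against 55.1%, and E-boxes (CANNTG, which can overlap a MYB site) in 8 of 12, against 72.3%. The Myb record, at 75% G and C, held none of the ETS, GATA, RUNX or MYB letters. The Sox4, Cd34 and proximal Runx1 windows each held 1 ETS core and no GATA or RUNX site. A match is a description of the letters and not a binding site. On GRCm38.p6, Cd34 (Entrez 12490) spans 194938821 to 194961292 of chromosome 1, Myb (17863) spans 21124930 to 21160984 of chromosome 10 and Meis1 (17268) spans 18880428 to 19019651 of chromosome 11. Runx1 (12394) and Erg (13876) lie on chromosome 16, at 92601466 to 92826074 and 95359169 to 95586600. Fli1 (14247) spans 32422204 to 32543432 of chromosome 9, Gfi1 (14581) 107716655 to 107725805 of chromosome 5 and Hoxa9 (15405) 52223097 to 52227370 of chromosome 6.

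Per transcript length, in the deposited FPKM, the median over the 6 libraries was highest for Spi1 (46.2), followed by Cd34 (14.4), Runx1 (10.8), Myb (5.1), Fli1 (4.36), Gfi1 (1.15), Erg (0.995), Meis1 (0.8), Sox4 (0.705) and Hoxa9 (0.02). The ranges over libraries of neighbours in this order overlapped except between Runx1 (7.40 to 16.06) and Myb (4.46 to 7.20) and between Sox4 (0.45 to 0.89) and Hoxa9 (0.02 to 0.08). The order depended on the library. In CDs 1 the FPKM of Myb was 5.97, below Cd34 at 8.18 and above Fli1 at 2.59, and in CDs 3 it was 5.16, below both Cd34 at 33.66 and Fli1 at 18.05. In untreated 1 Myb, at 5.04 FPKM, stood above Cd34 at 3.06 and Fli1 at 1.22, and in untreated 3, at 4.46, it stood below Cd34 at 21.05 and Fli1 at 11.92.

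**Figure D1:**
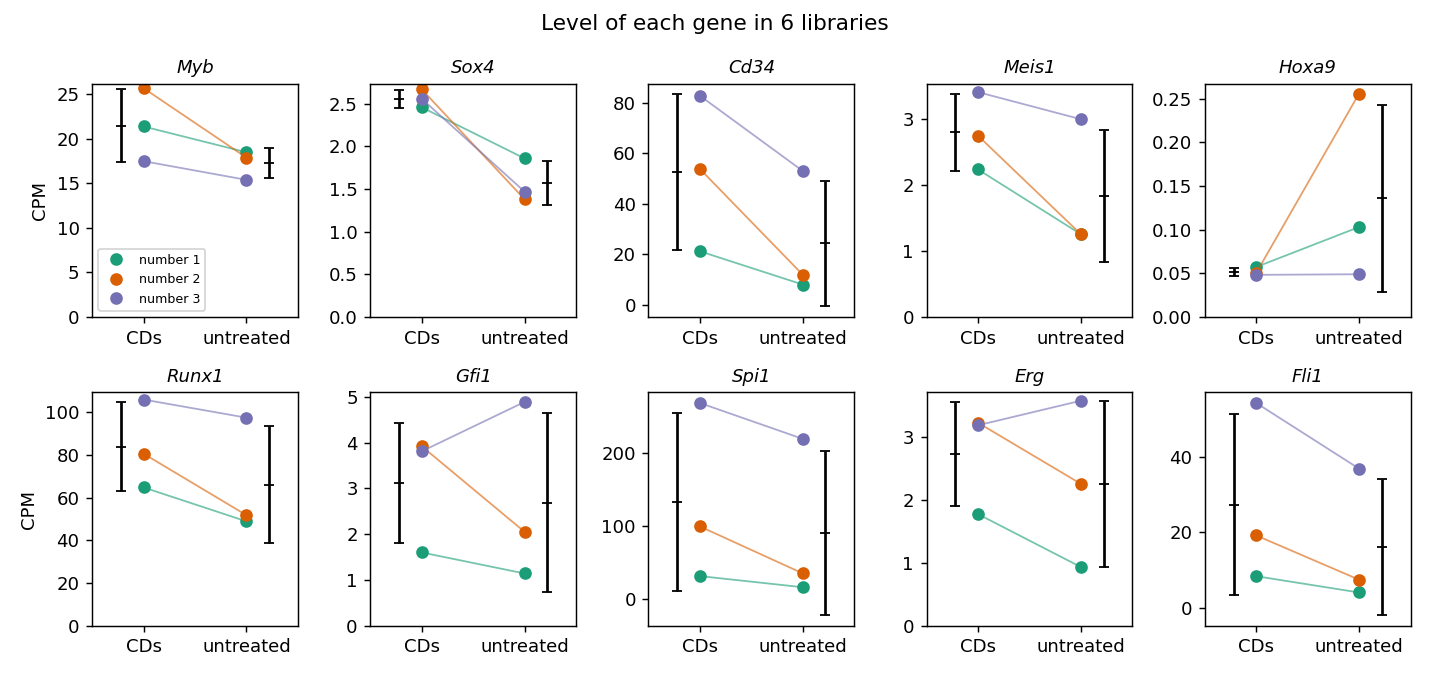
CPM of each of the 10 genes (vertical axis, a separate linear scale for each gene) in the CDs and untreated libraries. Points joined by a line share a replicate number, and the black bars are means ± SD over 3 libraries. Sox4 is the gene with all 3 CDs points above all 3 untreated points among the 9 tested, while in Spi1 and Fli1 the libraries numbered 3 stand far above the others in both groups.

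Sox4 and Myb, the factors of dividing immature progenitors, varied less between libraries of one group than the other genes tested. Sox4, an HMG-box factor of progenitor and early lymphoid cells, measured 2.46, 2.67 and 2.56 CPM in CDs 1 to 3, against 1.86, 1.38 and 1.47 CPM in untreated 1 to 3. All CDs values lay above all untreated values. CDs libraries lay above untreated ones without overlap in 1 of the 9 genes, and in 2.39% of all genes tested.

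The mean of Sox4 was 2.56 ± 0.103 CPM with CDs and 1.57 ± 0.255 CPM in untreated cells (SD, n = 3 each), a log2 fold change of 0.70 ± 0.23 (SE; edgeR adjusted p = 0.994, and adjusted p = 0.115 with the replicate block). Over all alternatives its adjusted p ran from 0.115 to 1, and its fold change from 0.59 to 0.86 in the count fits, with 0.64 on log2(FPKM + 0.1) and 0.30 on log2(FPKM + 1). The counts behind these values were small, at 43, 53 and 53 in CDs 1 to 3 and 36, 27 and 30 in untreated 1 to 3. Their exact Poisson 95% intervals ran from 31.1 to 57.9 in CDs 1 and from 25.2 to 49.8 in untreated 1, and thus overlapped within that pair. Treatment took 87.6% of the sum of squares of the 6 log2 CPM values of Sox4 and the replicate number 3.41%, where the medians over all genes tested were 9.04% for treatment and 82.6% for the number. A larger treatment share was found in 0.399% of genes. Sox4 (Entrez 20677, GRCm38.p6 chromosome 13, 28948919 to 28953699) shares 2616 exonic bases with Gm26735, a gene of the other strand in GENCODE M21. The protocol names no step that keeps strand, so reads of the pair cannot be told apart. Shorter exonic overlaps with genes of the other strand were annotated for Meis1 (896 bases), Myb (559), Cd34 (148), Runx1 (106) and Gfi1 (101). On its own strand Meis1 shares 1029 exonic bases with Gm37818, and Hoxa9 shares 85 with Mir196b. The overlapping genes are absent from both deposited tables and could not be analysed here.

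Myb, the c-Myb factor that keeps erythroid and myeloid progenitors in cycle and declines as erythroblasts mature, measured 21.4, 25.7 and 17.5 CPM in CDs 1 to 3, against 18.5, 17.9 and 15.4 CPM in untreated 1 to 3. The groups overlapped because CDs 3 lay below untreated 1 and 2, but each CDs library was above its numbered partner. The log2 differences within the pairs were 0.21, 0.52 and 0.18. The fit gave 0.32 ± 0.19 (SE; edgeR adjusted p = 0.994, and adjusted p = 0.131 with the replicate block, in a range from 0.123 to 1 over all alternatives). Treatment took 41.2% of its sum of squares and the number 48.1%. Between CDs 3 and CDs 1 Myb differed by -0.29 on the log2 scale, and between untreated 3 and untreated 1 by -0.27. For Sox4 these differences were 0.05 and -0.34, and for the other 7 genes both were above 0.

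Cd34 had the largest fold change of the set in the test on treatment alone and also a wide range within each. It measured 21.2, 53.8 and 82.8 CPM in CDs 1 to 3, against 8.01, 11.9 and 53.0 CPM in untreated 1 to 3. Untreated 3 lay above CDs 1 and just below CDs 2, and the groups overlapped. Means were 52.6 ± 30.8 CPM with CDs and 24.3 ± 24.9 CPM in untreated cells (SD, n = 3 each).

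The log2 fold change of Cd34 was 1.11 ± 0.88 (SE) without the block and 1.37 ± 0.33 with it (edgeR adjusted p = 0.994 and 0.107). By pair Cd34 was higher with CDs by 1.4, 2.18 and 0.64. DESeq2 with the replicate block called it (1.38 ± 0.28, adjusted p = 0.000101), and over all alternatives the adjusted p ran from 1.23e-11 to 1. That call was lost with pair 1 left out (1.39, adjusted p = 0.0875) and held with pair 2 (0.98, adjusted p = 0.00217) or pair 3 (1.81) left out. In edgeR without the block the fold change was 0.63 without CDs 3 and 2.40 without untreated 3. Between CDs 3 and CDs 1 the difference was 1.97 (3.91-fold), and between untreated 3 and untreated 1 it was 2.72 (6.61-fold).

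Meis1 and Runx1, factors of stem cells, had the smaller ranges among the genes that differed between libraries of one group. Meis1, a homeobox partner of HOXA and PBX proteins, measured 2.23, 2.74 and 3.40 CPM in CDs 1 to 3, against 1.25, 1.25 and 2.99 CPM in untreated 1 to 3. Untreated 3 lay above CDs 1 and 2, while untreated 1 and 2 lay below every CDs library. Its pair differences were 0.83, 1.07 and 0.20, and the fit gave 0.60 ± 0.44 (SE; edgeR adjusted p = 0.994, and adjusted p = 0.149 with the block, the lowest of all alternatives). With 1 library left out the fold change ran from 0.39 without untreated 1 to 1.14 without untreated 3. It was 0.35 with a covariate for macrophage markers and 0.31 on log2(FPKM + 1).

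Runx1, the DNA-binding subunit of core-binding factor, measured 64.8, 80.6 and 106 CPM in CDs 1 to 3, against 48.9, 51.8 and 97.5 CPM in untreated 1 to 3. Untreated 3 again stood among the CDs libraries and the other untreated libraries below them all. The pair differences were 0.41, 0.64 and 0.13, and the fit gave 0.35 ± 0.34 (SE; edgeR adjusted p = 0.994, and adjusted p = 0.106 with the block). The fold change was 0.14 without CDs 3 and 0.74 without untreated 3. DESeq2 with the block did not call Runx1 on all libraries (adjusted p = 0.0771) and called it with pair 3 left out (0.52, adjusted p = 0.0163), within a range over all alternatives from 0.0163 to 1. The replicate number took 73.1% of its sum of squares and treatment 20.9%, and for Meis1 the shares were 51.1% and 38.3%.

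Hoxa9, a homeobox factor of stem cells and leukaemia, was at the limit of detection. It had 1 count in each of the 3 CDs libraries, against 2, 5 and 1 counts in untreated 1 to 3. A single count has an exact Poisson 95% interval from 0.0253 to 5.57, and 5 counts one from 1.62 to 11.7. Hoxa9 did not pass the filter on low counts, and no fold is given. The other 9 genes passed the filter.

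The ETS factors Spi1 and Fli1 had the widest ranges of the set between libraries of one group. Spi1, the PU.1 factor of macrophages and granulocytes (Entrez 20375, chromosome 2, 91082374 to 91115759), measured 31.6, 99.4 and 268 CPM in CDs 1 to 3, against 16.4, 35.3 and 219 CPM in untreated 1 to 3. The groups overlapped, with untreated 3 above CDs 1 and 2. CDs 3 was 8.47 times CDs 1, and untreated 3 was 13.4 times untreated 1. The mean with CDs, at 133 ± 122 CPM, was 1.47 times the untreated mean of 90.4 ± 112 CPM (SD, n = 3 each).

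Spi1 had a log2 fold change of 0.56 ± 1.19 (SE) without the block and 0.89 ± 0.26 with it (edgeR adjusted p = 0.994 and 0.126). In edgeR without the block the direction turned without CDs 3 (-0.46), and the value was 2.36 without untreated 3. With both libraries numbered 3 left out it was 1.33. By pair Spi1 was higher with CDs by 0.94, 1.49 and 0.29. DESeq2 with the block called it (0.89, adjusted p = 0.00227), and lost the call with pair 1 (0.87, adjusted p = 0.269) or pair 2 (0.58, adjusted p = 0.072) left out, within a range over all alternatives from 7.91e-09 to 1.

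Fli1, a factor of stem cells, megakaryocytes and endothelium, measured 8.30, 19.1 and 54.2 CPM in CDs 1 to 3, against 3.98, 7.37 and 36.8 CPM in untreated 1 to 3. Untreated 3 lay above CDs 1 and 2. The fit gave 0.76 ± 1.06 (SE) without the block and 0.96 ± 0.17 with it (edgeR adjusted p = 0.994 and 0.0916), with pair differences of 1.06, 1.37 and 0.56. In edgeR without the block the value was -0.23 without CDs 3, and 2.26 without untreated 3. With both libraries numbered 3 left out it was 1.25. DESeq2 with the block called Fli1 (adjusted p = 0.000843) but not with pair 1 (0.94, adjusted p = 0.173) or pair 2 (0.76, adjusted p = 0.0623) left out, where the fold change on all libraries was 0.96, within a range over all alternatives from 0.000843 to 1.

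Erg, the closest ETS relative of Fli1, and Gfi1, a zinc-finger repressor of granulocyte progenitors and stem cells, were lower in CDs 3 than in untreated 3 in CPM. For Erg this turned in the deposited FPKM, with 1.4 in CDs 3 and 1.27 in untreated 3. Erg measured 1.77, 3.22 and 3.18 CPM in CDs 1 to 3, against 0.930, 2.25 and 3.57 CPM in untreated 1 to 3. Gfi1 measured 1.60, 3.92 and 3.81 CPM in CDs 1 to 3, against 1.14, 2.05 and 4.89 CPM in untreated 1 to 3. In CPM untreated 3 was the highest library for both genes and untreated 1 the lowest.

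The pair differences were 0.91, 0.51 and -0.16 for Erg and 0.49, 0.93 and -0.36 for Gfi1. Their log2 fold changes were 0.28 ± 0.55 and 0.21 ± 0.65 (SE; edgeR adjusted p = 0.994 for each). Counts in libraries numbered 1 were few, with 31 in CDs 1 and 18 in untreated 1 for Erg, and 28 in CDs 1 and 22 in untreated 1 for Gfi1. Leaving out untreated 1 turned the direction of Erg (-0.09) and Gfi1 (-0.15), and leaving out untreated 3 gave 0.77 and 0.97. Leaving out both libraries numbered 3 gave 0.64 for Erg and 0.78 for Gfi1. The number took 78.6% and 82.1% of their sums of squares.

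**Figure D2:**
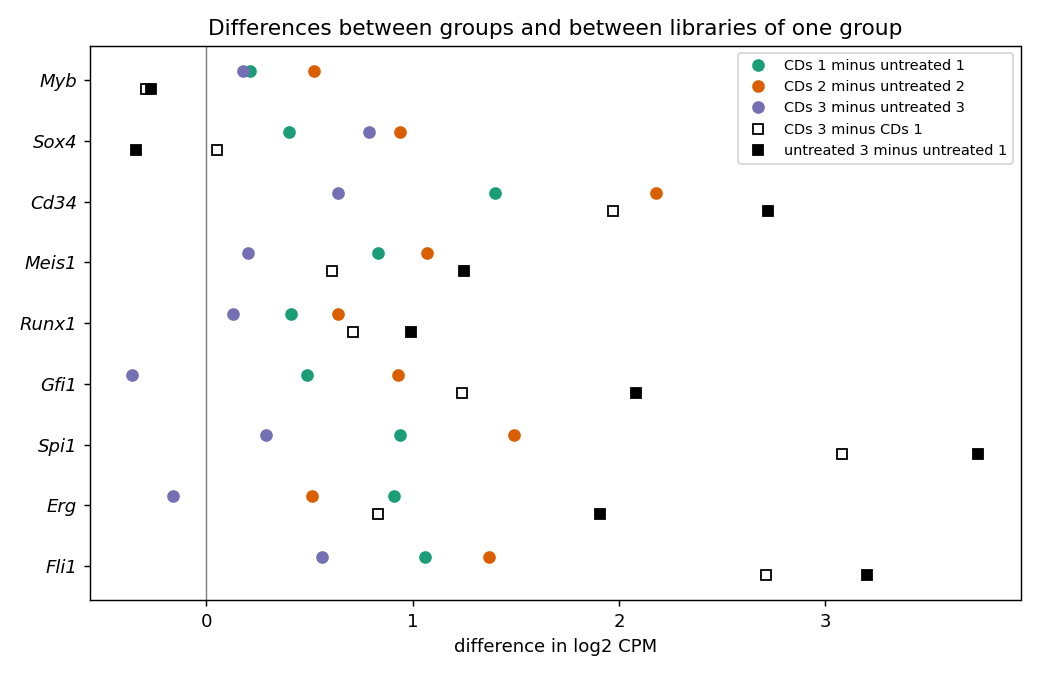
Differences in log2 CPM for the 9 genes tested. Filled circles are the 3 differences between a CDs library and the untreated library of the same number, and squares are differences between libraries numbered 3 and 1 within CDs (open) and untreated (filled). For Spi1 the filled square stands at 3.74 and the circles between 0.29 and 1.49, whereas for Sox4 the filled square stands at -0.34 and the circles between 0.40 and 0.94.

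CDs 3 was at least 1 above CDs 1 on the log2 scale in 4 of the 9 genes, against 23.2% of all genes, and untreated 3 at least 1 above untreated 1 in 6 of the 9, against 23.3%. The median of the 9 genes was 0.83 for CDs 3 against CDs 1 and 1.91 for untreated 3 against untreated 1, beside medians over all genes of -0.01 and -0.00. Between treatment groups the median of the 9 was 0.56, beside 0.01 over all genes. These comparisons share the libraries untreated 1 and untreated 3, so no relation between them was computed.

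**Figure D3:**
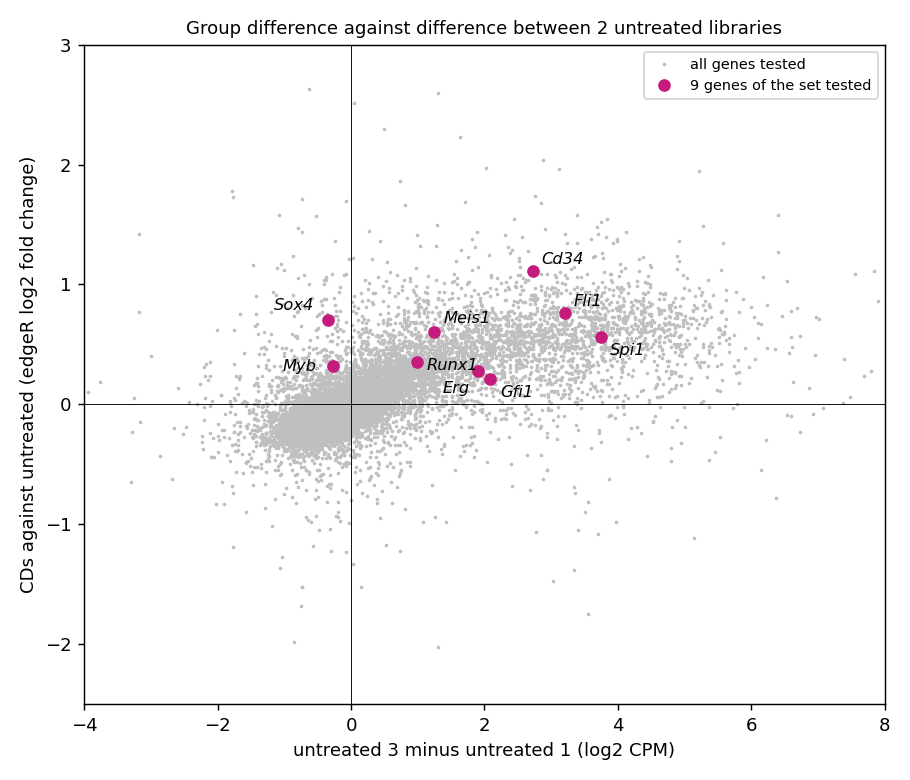
Log2 fold change between CDs and untreated libraries in edgeR (vertical axis) against the log2 CPM difference between untreated 3 and untreated 1 (horizontal axis) for all 12283 genes tested (grey) and the 9 genes of the set (pink), with 12 genes outside the axes. The axes share untreated libraries. Sox4 and Myb stand left of 0, and Cd34, Fli1 and Spi1 stand at 2.72, 3.2 and 3.74.

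Within the numbered pairs 7 of the 9 genes were higher with CDs in all 3, which held for 30.2% of all genes. The pairs were unequal. The median difference of the 9 genes was 0.83 in pair 1, 0.94 in pair 2 and 0.20 in pair 3. Pair 2 gave the largest of the 3 differences in 8 of the 9 genes, against 39% of all genes, and pair 3 the smallest in 8 of the 9, against 47.2%. With the replicate block edgeR called 0 of the 9 genes, against 0.0407% of all genes (5 genes), while 7 of the 9 and 29.9% of all genes had an unadjusted p under 0.05. DESeq2 with the block called 3 of the 9 higher, against 8.71% of the genes it gave an adjusted p, and 0 lower, against 2.35%. None of the 9 was lower with CDs in all 3 pairs, which held for 26.2% of all genes.

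**Figure D4:**
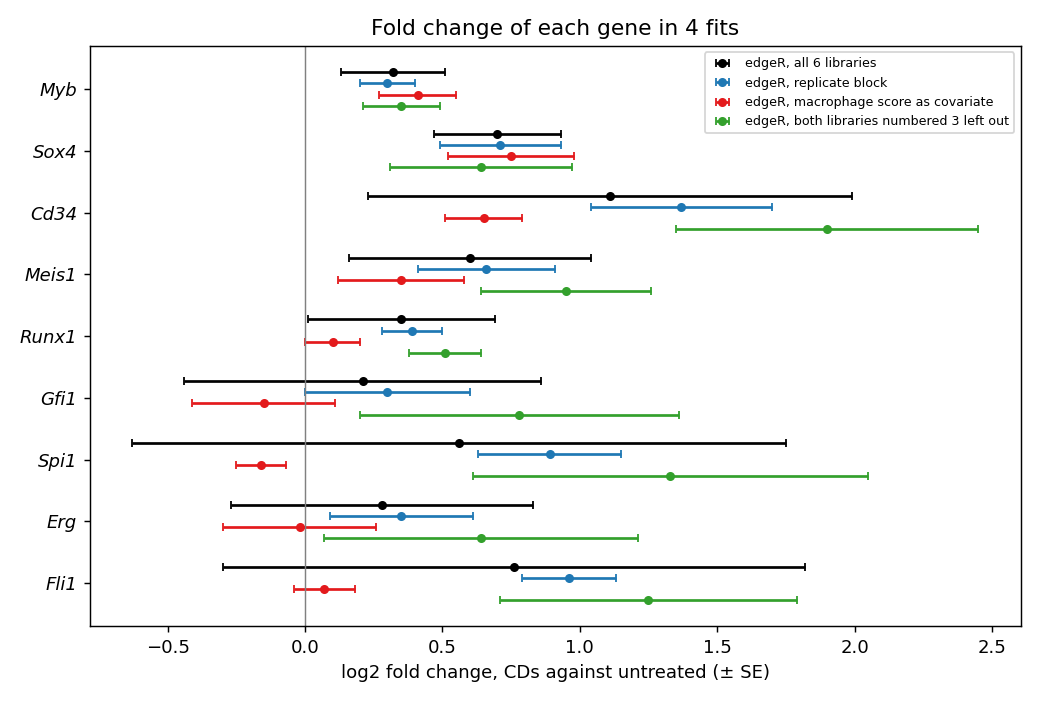
Log2 fold change of CDs against untreated (horizontal axis) with its standard error for the 9 genes tested in 4 edgeR fits. Sox4 stays between 0.64 and 0.75 in the 4 fits, while Spi1 stands at 0.56, 0.89, -0.16 and 1.33.

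Markers of other cell types differed between the same libraries. The 18 macrophage markers, all in the table, summed to 409, 1681 and 5681 CPM in CDs 1 to 3, against 174, 507 and 4350 CPM in untreated 1 to 3 (exact two-sided permutation p = 0.6, smallest possible 0.1). Adgre1 (F4/80), for example, measured 32.7, 130 and 488 CPM in CDs 1 to 3 and 9.61, 30.9 and 336 CPM in untreated 1 to 3, whereas the Kupffer cell genes Vsig4, Clec4f and Timd4 stayed at or under 0.289 CPM in every library, and Vsig4 was at 0 in 5 of 6. Of the 18 markers 4 were below 1 CPM in all libraries. By pair the macrophage sum was 2.36, 3.32 and 1.31 times as high with CDs, largest in pair 2 and smallest in pair 3, as in most of the 9 genes. The summed markers of granulocytes (1.43, 1.52 and 1.02), dendritic cells (1.65, 3.08 and 0.915) and erythroblasts (0.96, 1.06 and 0.934) had the same order of pairs. Over all genes 39% had their largest difference in pair 2 and 47.2% their smallest in pair 3. Granulocyte markers (13) summed to 417, 1417 and 2388 CPM in CDs 1 to 3 and 291, 930 and 2333 CPM in untreated 1 to 3 (exact p = 0.7). In bulk RNA a larger number of cells of a type and more RNA per cell cannot be told apart.

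With the mean log2 CPM of the macrophage markers as a covariate in edgeR, Spi1 had a log2 fold change of -0.16 ± 0.09 and Fli1 0.07 ± 0.11 (SE). Runx1 was at 0.10 ± 0.10, Meis1 at 0.35 ± 0.23, Gfi1 at -0.15 ± 0.26 and Erg at -0.02 ± 0.28. Cd34, at 0.65 ± 0.14 with the covariate and 1.11 ± 0.88 without it, Sox4 (0.75 ± 0.23) and Myb (0.41 ± 0.14) had the values farthest from 0 in this fit. None of the 9 passed in this fit (smallest adjusted p = 0.119, for Cd34). The summed macrophage markers were themselves higher with CDs in each pair. The covariate can thus take up part of a treatment difference, whether or not macrophages make the gene.

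Per 100 CPM of macrophage markers, Spi1 amounted to 7.73, 5.91 and 4.72 CPM in CDs 1 to 3, against 9.46, 6.96 and 5.04 CPM in untreated 1 to 3, and was thus lower in the CDs library of each pair. Cd34 amounted to 5.17, 3.2 and 1.46 CPM per 100 CPM in CDs 1 to 3, against 4.61, 2.34 and 1.22 in untreated 1 to 3, and was higher in the CDs library of each pair. Myb, Meis1, Runx1, Gfi1 and Erg were lower per macrophage marker in the CDs library of each pair, and Sox4 and Fli1 were higher in 1 of 3. The marker sum itself was 2.36, 3.32 and 1.31 times as high with CDs by pair. Any gene that rose less, or fell, is thus lower in this ratio, whether or not macrophages make it. The part of these markers in the differences between groups was not tested beyond these values.

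**Figure D5:**
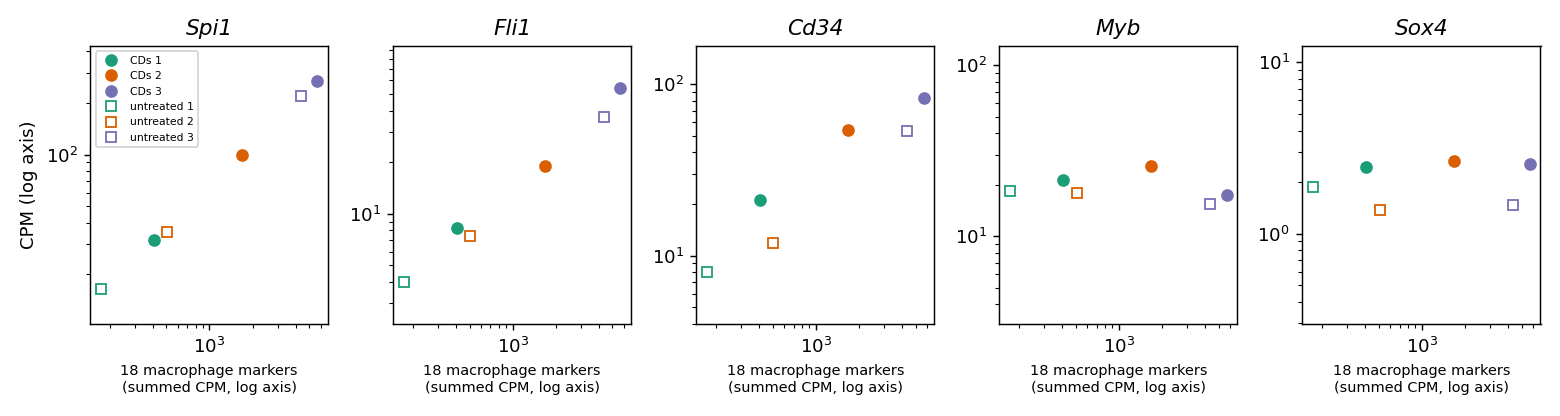
CPM of Spi1, Fli1, Cd34, Myb and Sox4 (vertical log axes of equal span) against the summed CPM of 18 macrophage markers (horizontal log axis) in the 6 libraries, CDs filled and untreated open. Spi1 and Fli1 are low where the marker sum is low, at 174 CPM in untreated 1, and high where it is high, at 5681 CPM in CDs 3, while Sox4 stays between 1.38 and 2.67 CPM.

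Endothelial cells and megakaryocytes also make Erg and Fli1, and single markers of each differed in both directions between libraries. The 13 endothelial markers summed to 508, 446 and 365 CPM in CDs 1 to 3, against 188, 181 and 230 CPM in untreated 1 to 3 (exact p = 0.1, the smallest possible). By pair this sum was 2.7, 2.46 and 1.59 times as high with CDs. Cd34 was also higher in each pair, but from CDs 1 to CDs 3 Cd34 rose from 21.2 to 82.8 CPM while the sum fell. Most of that sum was Flt1, at 473, 391 and 252 CPM in CDs 1 to 3 and 158, 144 and 133 CPM in untreated 1 to 3. Egfl7 was lower with CDs in each pair, at 14.6, 12.6 and 3.52 CPM in CDs 1 to 3 and 19.1, 18.5 and 7.87 CPM in untreated 1 to 3. Of the 8 endothelial markers that reached 1 CPM in any library, 5 were, like Fli1 and Erg, higher in library 3 than in library 1 of both groups, and 2 were lower in both. Kdr (VEGFR2), for example, measured 2.63, 5.68 and 27.4 CPM in CDs 1 to 3 and 0.672, 2.3 and 22.6 CPM in untreated 1 to 3, and Pecam1 7.55, 21.9 and 47.7 CPM in CDs 1 to 3 and 5.11, 8.13 and 38.1 CPM in untreated 1 to 3. Cdh5 (VE-cadherin) was highest in CDs 3 (3.91 CPM) and untreated 3 (2 CPM) and below 1 CPM elsewhere, and Emcn was at 0 in 5 of 6 libraries.

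The 12 megakaryocyte markers summed to 166, 171 and 122 CPM in CDs 1 to 3, against 114, 125 and 128 CPM in untreated 1 to 3 (exact p = 0.3). Of these 12, 5 were higher in library 3 than in library 1 of both groups, 4 were lower in both and the others differed between the groups. Itgb3, an integrin chain of platelets, measured 22.4, 23.2 and 23 CPM in CDs 1 to 3 and 8.7, 14.4 and 21.1 CPM in untreated 1 to 3, whereas Gp9, a platelet glycoprotein, measured 16.7, 19.1 and 9.16 CPM in CDs 1 to 3 and 19.3, 20.8 and 13.4 CPM in untreated 1 to 3. The part of these or of endothelial cells in the levels of Erg, Fli1 and Cd34 was not tested.

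The 16 erythroblast markers summed to 113959 to 141725 CPM with CDs and 122072 to 137291 CPM untreated (exact p = 0.8), most of it globin RNA. Of the 16, 14 were lower in library 3 than in library 1 of both groups, opposite to Spi1 and Fli1. Gata1, the main erythroid factor, measured 528, 441 and 249 CPM in CDs 1 to 3 and 528, 513 and 339 CPM in untreated 1 to 3, and Klf1, a factor of globin genes, 694, 590 and 285 CPM in CDs 1 to 3 and 735, 689 and 388 CPM in untreated 1 to 3.

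Among 30 other stem and progenitor regulators 22 passed the filter, and edgeR called 0 of them with or without the block. Of the 19 given an adjusted p, DESeq2 with the block called 2 higher (Cd93 and Cbfb) and 1 lower (Bcl11a). Of all genes given an adjusted p, 8.71% were called higher and 2.35% lower. With CDs 8 of the 22 were higher in all pairs, against 30.2% of all genes, and 2 were lower, against 26.2%. Mycn, a MYC family factor, measured 1.03, 1.01 and 0.434 CPM in CDs 1 to 3, against 0.568, 0.512 and 0.489 CPM in untreated 1 to 3. CDs 3 lay below every untreated library, and the log2 fold change was 0.65 ± 0.40 (SE, edgeR adjusted p = 0.994). The median of the 22 was 0.21.

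Of the myeloid factors and early myeloid genes, all 20 passed the filter and had a log2 fold change above 0, 16 were higher in all 3 pairs (30.2% of all genes), and the median log2 fold change was 0.44, beside 0.01 over all genes tested. EdgeR called 0 with or without the block. DESeq2 with the block called 11 higher (8.71% of all genes given an adjusted p), among them Cebpa and Irf8, factors that act with Spi1. Of the 20, Csf1r is also in the macrophage list, and Mpo, Elane, Prtn3, Ctsg, Ms4a3 and Cebpe are in the granulocyte list. Untreated 3 exceeded untreated 1 by at least 1 on the log2 scale in 17 of the 20, against 23.3% of all genes, with a median of 2.78. Csf3r, the G-CSF receptor, was lower in untreated 3 than in untreated 1, at 116, 78.9 and 36.4 CPM in CDs 1 to 3 and 15.6, 11.7 and 10 CPM in untreated 1 to 3 (2.63 ± 0.47, edgeR adjusted p = 0.994). With the replicate block its pair differences of 2.90, 2.75 and 1.86 gave an edgeR adjusted p of 0.0916 and a DESeq2 adjusted p of 3.5e-24. Prtn3, a granule protease, measured 18.5, 44.4 and 60.2 CPM in CDs 1 to 3 and 10.8, 24.2 and 44.6 CPM in untreated 1 to 3 (0.63 ± 0.65), and Junb, an AP-1 factor, had 0.39 ± 0.38. DESeq2 with the block called both of them (adjusted p = 0.00141 for Prtn3 and 0.0263 for Junb).

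EdgeR called 0 of the relatives and partners of the set and 0 of the erythroid factors, with or without the block. Of 28 relatives and partners tested, 13 were higher and 7 lower with CDs in all pairs, against 30.2% and 26.2% of all genes (median 0.05), with Runx1t1 at 0.57 ± 0.38 and Pbx4 at -0.34 ± 0.24. Gfi1b, the erythroid relative of Gfi1, measured 200, 212 and 141 CPM in CDs 1 to 3, against 241, 248 and 187 CPM in untreated 1 to 3 (-0.29 ± 0.21, and -0.30 ± 0.06 with the block, edgeR adjusted p = 0.0916). DESeq2 with the block called it lower (adjusted p = 0.0181). Gfi1b was thus lower with CDs in each pair, where Gfi1 was higher in 2 of 3. Of 17 erythroid factors 3 were higher and 5 lower in all pairs (median -0.10), with Ldb1 at -0.35 ± 0.35 and Stat5a at 0.20 ± 0.18. DESeq2 with the block called 1 of the 17 higher (Bach1) and 4 lower (Gfi1b, Ldb1, Hmgb3 and E2f4). Of all genes given an adjusted p, it called 8.71% higher and 2.35% lower.

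The genes closest in profile, by the root mean square difference of centred log2 CPM over 6 libraries among 11029 genes, differed between members. Fli1 was closest to Tfec (0.03), a factor of macrophages, and Cerk (0.08), and Spi1 to Cotl1 (0.05) and Tnfrsf1a (0.06). Runx1 was closest to Ptov1 (0.05) and Calr (0.05), and Meis1 to Limk1 (0.07) and Pde4a (0.12). Cd34 was closest to Camk2a (0.12) and Idh1 (0.17), Gfi1 to Xkr8 (0.14) and Haao (0.15), and Erg to Acap1 (0.12) and Eps8l1 (0.13). For Myb the closest were Lrrc7 (0.05) and Zfp235 (0.06), and for Sox4 Cyb5b (0.14) and Cbx2 (0.15). Within the set the closest relations were between Meis1 and Runx1 (0.18) and between Spi1 and Fli1 (0.21).

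The deposited counts and FPKM were compared for each gene through the length that a count, its FPKM and the library total imply. These lengths deviated between libraries by a root mean square of 0.00485 (Sox4), 0.00753 (Myb) and 0.0078 (Cd34) on the log2 scale, near the median of 0.00448 over 6957 well-counted genes. Meis1 (0.103) and Erg (0.15) deviated more than 99.4% and 99.8% of those genes, and Runx1, with an implied length of 6643 to 6903 bases in CDs and 6424 to 6757 in untreated libraries, reached 0.0362. Over all libraries the FPKM of Erg was 0.59, 1.11 and 1.4 in CDs 1 to 3 and 0.28, 0.88 and 1.27 in untreated 1 to 3. With library totals exchanged between the groups the deviations of the 10 genes grew to between 0.0829 and 0.227.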

How the data were processed

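RNA was selected with oligo(dT) beads and read from 1 end over 50 bases, per the labels' protocols. The authors deposited expected counts per gene, 30.1% of them not whole, and FPKM (a unit inferred from the values) for the same 17691 genes. Build GRCm38.p6 and the tools RSEM 1.2.12, HISAT2 2.0.4, DESeq2 1.4.5 and Bowtie2 2.2.5 are listed, without roles, per the submitters' processing notes. Totals ran from 17695997 to 20066581 counts per library. A total of 24 gene symbols deposited as dates were restored. Counting intervals cover counting error only.

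Counts were rounded, filtered with filterByExpr (12283 genes, 99.9% of counts), given TMM factors and fitted in edgeR 4.0.16 under R 4.3.3 (robust quasi-likelihood), treatment being the only term, with Benjamini-Hochberg adjustment over all genes and a threshold of 0.05. A standard error is the fold change divided by the square root of F. CPM use TMM-scaled totals, and log2 CPM a prior count of 0.5. DESeq2 1.42.0, limma 3.58.1 and the other alternatives are in the closing section. Both groups carry numbers 1 to 3, and deviations of same-numbered libraries correlated at 0.88, 0.29 and 0.92, so the numbers were taken to pair the libraries. The design text names no pairing, so the pair differences and the fits with the block rest on this reading of the same data. The replicate block is a term for the replicate number. The main fit lacks it, so its standard errors and p-values, such as 0.994, include the differences between numbers. The common coefficient of variation in edgeR was 0.485 without the block and 0.112 with it.

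The genes and lists were chosen with earlier results of these data known. Named from each list were the 3 genes of smallest unadjusted p, except some that are not reported here, and for likeness the 2 nearest genes of at least 1 CPM without predicted or clone names. Vsig4, Clec4f, Timd4, Adgre1, Emcn, Cdh5, Flt1, Egfl7, Kdr, Pecam1, Itgb3, Gp9, Gata1, Klf1, Csf1r, Elane, Mpo, Ctsg, Ms4a3, Cebpe, Cd79b, Cd74 and the genes listed by DESeq2 calls were named after their values were seen. The labels do not say whether replicates were separate cultures, so a p-value covers the spread of these 6 libraries alone, which may be technical. Libraries of a group differed beyond sampling noise (smallest chi-square per gene 11.5).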

Additional observations from a re-analysis of the deposited data

How the results depend on the processing

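The test without the replicate block called 0 genes and 0 of the 9 tested here. The count over all genes became 5 with the replicate block in edgeR, 14 in DESeq2, 1200 in DESeq2 with the block, 7 in limma-voom with the block and 78 with a covariate for macrophage markers. In DESeq2 with the block it became 34, 229 and 854 with pair 1, 2 or 3 left out, settings added after the data were seen. Of the 9 genes, DESeq2 with the block called 3, and 0, 1 and 4 with pair 1, 2 or 3 left out. With pair 1 left out it gave no adjusted p to Myb, Sox4, Meis1, Gfi1 and Erg. With pair 2 left out it gave none to Sox4, Meis1, Gfi1 and Erg, so these genes could not be called there. RLE scaling, totals only, no filter, limma-voom, both FPKM settings, leaving out any 1 library and leaving out both libraries numbered 3 called 0 genes. No setting other than DESeq2 with the block called any of the 9. Of 189 fold changes of the 9 genes under alternatives, 8 passed the threshold, 8 turned direction and 173 did neither. Among the 173 are those of DESeq2 without an adjusted p, which have no side of the threshold. The turned ones were Gfi1 (-0.15), Spi1 (-0.16) and Erg (-0.02) with the macrophage covariate, and cases with 1 library left out, over which Gfi1 ran from -0.15 to 0.97, Spi1 from -0.46 to 2.36, Erg from -0.09 to 0.77 and Fli1 from -0.23 to 2.26. With both libraries numbered 3 left out, Gfi1 was at 0.78, Spi1 at 1.33, Erg at 0.64 and Fli1 at 1.25. The cause of the turns was not tested. The median difference of the 9 genes between untreated 3 and untreated 1, 1.91, was 0.83 between CDs 3 and CDs 1. In edgeR and limma-voom the replicate block changed no call among the 9. Depth limits Hoxa9, with at most 5 counts in a library, and widens the intervals of Sox4, Erg, Gfi1 and Meis1.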

Other observations

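Markers of further blood and liver cells differed between libraries to unequal degrees. Dendritic cell markers (10) summed to 23.9, 99.9 and 196 CPM in CDs 1 to 3, against 14.5, 32.5 and 214 CPM in untreated 1 to 3 (exact permutation p = 0.9). Most of this sum was Cd74, at 15.4, 74.1 and 147 CPM in CDs 1 to 3. In untreated 1 to 3 Cd74 measured 9.09, 22.2 and 168 CPM. Of the 10 dendritic markers 3 were below 1 CPM in all libraries. Mast cell, basophil and eosinophil markers (11) summed to 121, 245 and 413 CPM in CDs 1 to 3, against 83.5, 174 and 493 CPM in untreated 1 to 3 (exact permutation p = 1). In both lists untreated 3 was the highest library, as for Erg and Gfi1. Fetal hepatocyte markers (11), such as albumin, summed to 367, 366 and 698 CPM in CDs 1 to 3, against 302, 234 and 520 CPM in untreated 1 to 3 (exact permutation p = 0.5). Lymphoid markers (11 in the table) stood at 65.8 to 94.2 CPM with CDs and 64.2 to 90.9 CPM untreated (exact permutation p = 0.6). Most of this was Cd79b, at 60.5, 59.1 and 75.5 CPM in CDs 1 to 3. In untreated 1 to 3 Cd79b measured 57.6, 58.3 and 70.5 CPM. Of the 11 lymphoid markers 8 were below 1 CPM in all libraries.

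Taken per 100 CPM of granulocyte markers, Gfi1 amounted to 0.385, 0.277 and 0.160 CPM in CDs 1 to 3, against 0.391, 0.220 and 0.209 CPM in untreated 1 to 3, higher with CDs in 1 of 3 pairs. Cd34 amounted to 5.08, 3.80 and 3.47 CPM in CDs 1 to 3, against 2.75, 1.28 and 2.27 CPM in untreated 1 to 3, higher with CDs in 3 of 3 pairs.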
